A study of Mus musculus with 2 samples.

Results

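Oxidative phosphorylation is carried out by 5 protein complexes of the mitochondrial inner membrane, and the 92 nuclear genes described here carry the names of their subunits. The genes were chosen by symbol alone (Nduf followed by a, b, c, s or v for complex I, Sdha to Sdhd for complex II, Uqcr for complex III, Cox4 to Cox8 for complex IV and Atp5 for complex V), a rule that uses no measured value, and are 92 of the 24411 genes counted. They were compared between the subventricular zone (SVZ) and the cortex of the mouse brain at embryonic day 16.5. Both areas were cut by laser capture microdissection (LCM) from stained cryosections of fresh frozen embryos. RNA purified from each area was made into 1 bulk library with a kit for low RNA input and sequenced. The labels give no strain, no sex and no number of embryos, and both libraries share age and preparation. With 1 library per area there was no replicate check, so no test between the areas was possible, and the 95% counting interval beside each ratio (exact, Clopper-Pearson) covers counting error only.

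Complexes I and II pass electrons from NADH and succinate to ubiquinone, complex III passes them to cytochrome c and complex IV to oxygen, and complex V (ATP synthase) uses the proton gradient that complexes I, III and IV build up. Neurons are known to draw most of their ATP from this pathway, and dividing neural progenitors are described as relying more on glycolysis. The catalytic core of complex IV and further subunits of complexes I, III and V are encoded in mitochondrial DNA, but 0 mitochondrially encoded genes were among the genes counted, so the nuclear genes could not be set against their mitochondrial partners.

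The symbols took in more than subunits. Of the 92 genes, 10 encode proteins that are not subunits, namely the 7 complex I assembly factors Ndufaf1 to Ndufaf7, the supercomplex factor Cox7a2l, and Atp5s and Atp5sl (Dmac2 in the annotation used). Ndufa4 is named for complex I and its protein is found in complex IV. Cyc1, the nuclear-encoded cytochrome c1 of complex III, does not match the symbols and had 231 CPM in the SVZ and 219.8 CPM in the cortex.

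The gene counts summed to 51435667 reads in the SVZ and 22050693 reads in the cortex, a ratio of 2.33. Reads that mapped to several places, and were not counted, made up 8.20% of all SVZ reads and 6.89% of all cortex reads. Uniquely mapped reads that overlapped no annotated exon were 15.4% and 18.4%, and unmapped reads 16.0% and 14.3%, in the same order. Levels are given as CPM, a gene's reads divided by the gene-assigned reads of its library and multiplied by 1000000, and 1 read stands for 0.0194 CPM in the SVZ and 0.0454 CPM in the cortex. The 4 SVZ markers (Pax6, Sox2, Eomes and Mki67) had log2 ratios of SVZ to cortex CPM from 3.74 to 11.29, and the 4 cortex markers (Cdh13, Neurod6, Snap25 and Tbr1) from -6.45 to -0.81, so each marker was higher in the area it was listed for. Neurod6, a gene of postmitotic excitatory neurons, still had 1592 CPM in the SVZ and 2797 CPM in the cortex. Markers of other tissues also differed between the libraries. Of 10 choroid plexus markers, 9 were higher in the SVZ library, with a summed level of 265 against 8.57 CPM, and Folr1, Clic6, Otx2, Slc4a5 and Kcne2 had 0 cortex reads. Ttr alone gave 240.4 CPM in the SVZ and 0.726 CPM in the cortex, and Kl had 0 reads in both. All 10 microglia markers were higher in the SVZ, at a summed 76.7 against 9.25 CPM, and blood vessel markers summed to 158 and 119 CPM. The adult globin genes Hba-a1, Hba-a2, Hbb-bt and Hbb-bs had 0 reads in both libraries, and the erythroid list of 9 genes summed to 25.7 CPM in the SVZ and 12.3 CPM in the cortex. The part of these cells in the ratios below was not tested, and in bulk tissue a change in the cells present and a change in RNA per cell cannot be told apart.

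Promoters of the genes are shown first because nuclear respiratory factor 1 (NRF1), the ETS factor GABPA and YY1 are textbook activators of respiratory chain genes. RefSeq promoters (GRCm38.p6, 250 bases before to 50 bases after the first base of the transcript) were matched for 76 of the 92 genes, as 82 promoters. GCGCANGCG, the NRF1 motif, was searched on both strands and lay in 28.0% of the 82 promoters, in 15.4% of the 9031 promoters of genes that averaged at least 10 CPM and in 6.25% of all 32851 promoters. The YY1 motif AAGATGGCG lay in 9 of the 82, 319 of the 9031 and 461 of the 32851 promoters. CCGGAAGT, the ETS motif, was found in 6.10%, 9.16% and 3.89%, and the TATA motif TATAAA in 9.76%, 6.50% and 13.6%. Some genes have more than 1 promoter. Counted once per gene, the NRF1 motif lay in 28.9% of the 76 genes, 18.3% of 6999 genes that averaged at least 10 CPM and 7.03% of all 27025 genes. The YY1 motif lay in 8 of the 76, 307 of the 6999 and 443 of the 27025 genes. The NRF1 motif reads nearly the same on both strands, so its matches can overlap by all but 1 base. These are matches of letters and not measured binding.

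The promoters of the 3 c-ring genes of complex V, which encode the same mature protein but had unlike ratios, are printed to show how they differ, and that of Sdha, the flavoprotein of complex II, as a promoter with 3 NRF1 matches. Each runs 5′ to 3′ on the strand of the gene over 280 bases, the last 30 being the start of the transcript, and capitals mark NRF1 matches. All 4 genes lie on the minus strand. The windows are chr11:96075602-96075881 for Atp5g1, chr15:102671018-102671297 for Atp5g2, chr2:73911297-73911576 for Atp5g3 and chr13:74350211-74350490 for Sdha.
Atp5g1: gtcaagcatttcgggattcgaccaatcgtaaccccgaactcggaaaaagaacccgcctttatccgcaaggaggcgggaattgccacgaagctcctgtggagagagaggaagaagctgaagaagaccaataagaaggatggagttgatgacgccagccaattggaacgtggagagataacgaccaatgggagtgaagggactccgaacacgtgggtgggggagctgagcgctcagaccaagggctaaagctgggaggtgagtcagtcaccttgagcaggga
Atp5g2: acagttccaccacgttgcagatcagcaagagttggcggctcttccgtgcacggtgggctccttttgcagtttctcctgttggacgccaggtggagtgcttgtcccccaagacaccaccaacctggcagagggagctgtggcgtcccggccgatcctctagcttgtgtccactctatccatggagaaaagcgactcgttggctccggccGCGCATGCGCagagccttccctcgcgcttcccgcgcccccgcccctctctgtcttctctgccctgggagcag
Atp5g3: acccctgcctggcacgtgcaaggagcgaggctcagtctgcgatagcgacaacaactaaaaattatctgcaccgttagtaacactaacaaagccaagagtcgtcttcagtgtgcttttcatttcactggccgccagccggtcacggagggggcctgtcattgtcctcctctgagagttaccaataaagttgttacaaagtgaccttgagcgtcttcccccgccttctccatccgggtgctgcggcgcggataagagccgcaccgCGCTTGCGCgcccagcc
Sdha: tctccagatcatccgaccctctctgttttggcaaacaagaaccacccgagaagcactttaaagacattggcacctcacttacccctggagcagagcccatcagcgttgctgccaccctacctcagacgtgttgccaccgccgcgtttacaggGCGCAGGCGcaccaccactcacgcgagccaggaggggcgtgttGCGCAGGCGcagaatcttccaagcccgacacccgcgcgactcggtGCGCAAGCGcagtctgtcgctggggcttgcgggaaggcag
Atp5g2 carried 2 overlapping NRF1 matches, Atp5g3 carried 1 and Atp5g1 none of the 4 motifs. Among the genes with a promoter that averaged 10 CPM or more, the 21 with an NRF1 match had a median log2 ratio of 0.35 (range -0.46 to 1.02) and the 49 without had 0.45 (range -0.10 to 0.90), so the ranges overlapped over most of their length. The 5 genes with an ETS match had a median of 0.71 and a range of 0.43 to 0.79, inside that of the 65 without (median 0.39, range -0.46 to 1.02).

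Most transcripts of the oxidative phosphorylation genes were higher in the SVZ library by a small factor. Of the 92 genes, 82 averaged 10 CPM or more across the libraries and entered counts and medians, as did 9027 of all genes. The SVZ level was the higher in 77 of the 82 genes (93.9%), against 55.2% of all genes tested, and the median log2 ratio was 0.41 (1.33-fold; quartiles 0.23 and 0.67) against 0.10 (quartiles -0.46 and 0.61) for all genes. The counting interval lay above 0 for 73 of the 82 genes (89.0%; 49.8% of all genes) and below 0 for 4 (4.88%; 39.5% of all genes). For the remaining 5 genes it spanned 0. Summed over the 92 genes, the share of gene-assigned reads was 1.97% for the SVZ and 1.49% for the cortex, with a log2 ratio of 0.40 (0.39 to 0.41). The 10 genes under 10 CPM are Ndufs5, Ndufa4l2, Atp5s and 7 isoforms of complex IV subunits, described with their complexes.

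Few of these differences were large. Only Ndufa2, Sdhc and Atp5g2 were at least 2-fold higher in the SVZ (3 of 82, 3.66%; 14.9% of all genes tested). When the libraries were scaled by TMM, upper-quartile or DESeq2 factors, which set library size by the bulk of genes in place of the total, 71 of 82 genes were higher in the SVZ and 1, Ndufa2, was at least 2-fold higher. Under these scalings 50.3%, 50.0% and 50.2% of all genes were higher in the SVZ and 13.3%, 13.1% and 13.3% at least 2-fold. With library totals 0 of 82 were at least 2-fold higher in the cortex (12.3% of all genes). At 1.5-fold, 27 genes were higher in the SVZ (32.9%; 26.1% of all genes) and 0 in the cortex (21.2% of all genes). The log2 ratios had an SD across genes of 0.302, against 1.58 for the 8945 other genes, and 79 of 82 genes (96.3%) against 72.6% of the others lay within 2-fold. Across the 82 genes the level in the SVZ followed the level in the cortex with a Spearman rho of 0.95 (0.724 over the other genes), a description over genes that share both libraries.

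**Figure D1:**
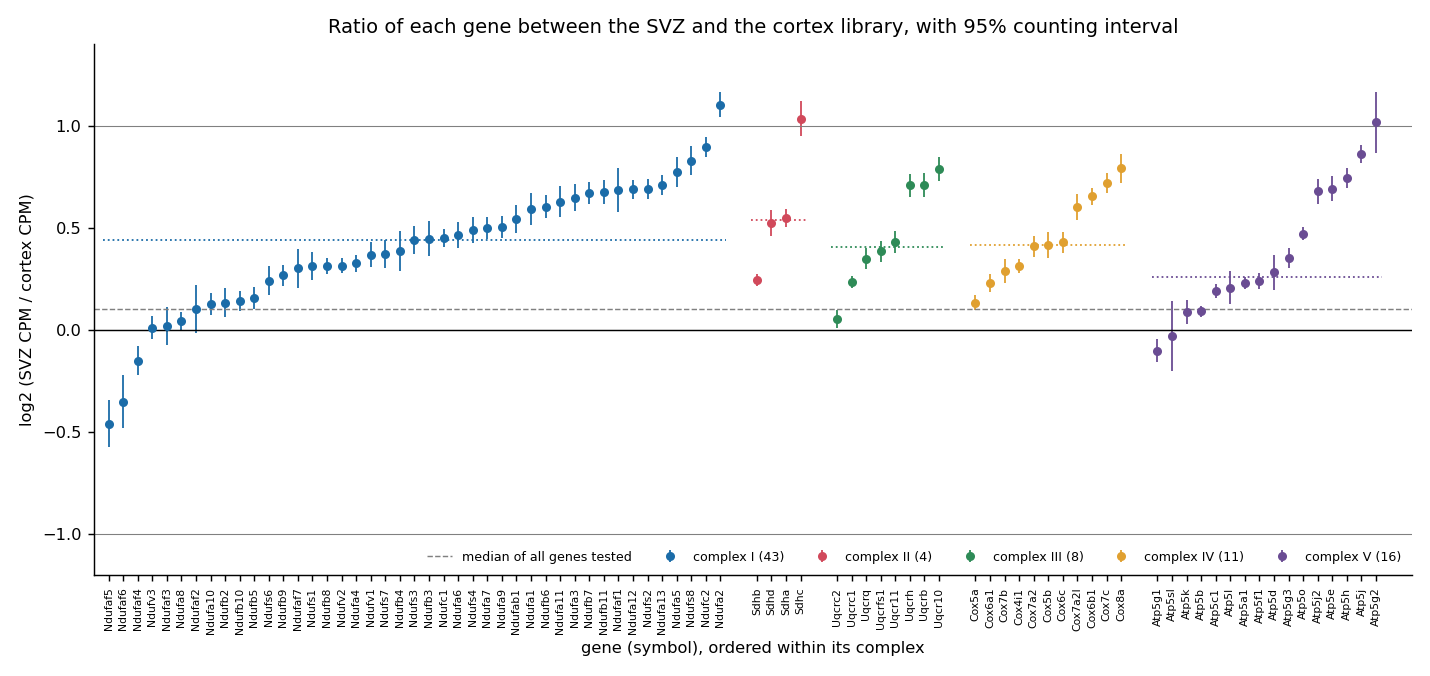
Log2 ratio of SVZ to cortex CPM (y axis) for each of the 82 genes that averaged 10 CPM or more (x axis), grouped by complex; points are ratios, bars the 95% counting interval, dotted lines complex medians and the dashed line the median of all genes tested (0.10). Of the 82 points, 77 lie above 0, and 3 lie above the line that marks 2-fold, 1 each in complexes I, II and V.

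**Figure D2:**
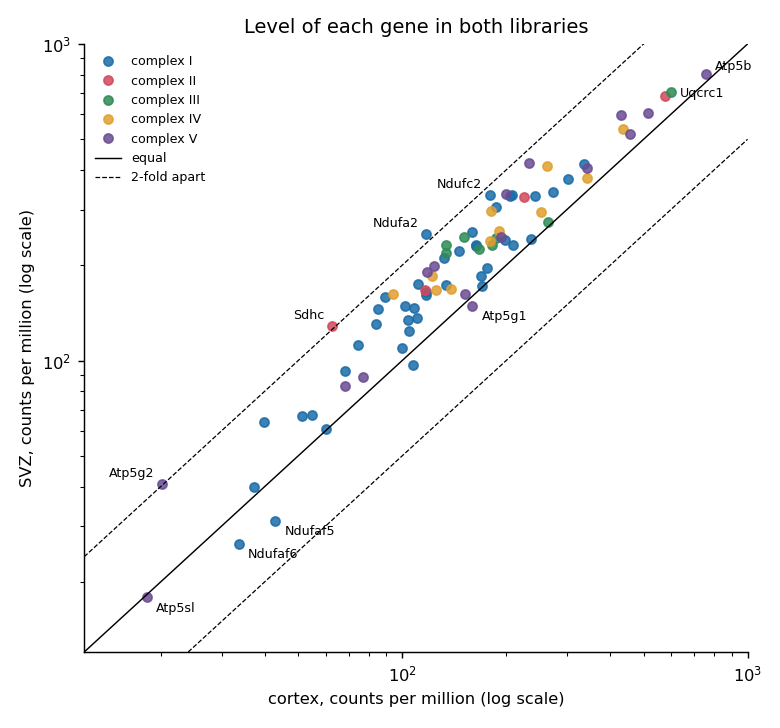
Level of each of the 82 genes in the cortex library (x axis) and the SVZ library (y axis), both in CPM on log scales, coloured by complex, with lines at equal levels and 2-fold apart. The points run in a narrow band up to Atp5b (806 CPM in the SVZ), 77 of them above the line of equality and 5 (Ndufaf4, Ndufaf5, Ndufaf6, Atp5g1 and Atp5sl) below it.

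The ratios moved with transcript length, in these genes and in all others. The 82 genes have short transcripts, with a median of 863 bases against 3029 bases for the other genes, and across the other genes short transcripts were the higher in the SVZ library. For transcripts of at most 600 bases the median log2 ratio was 0.50 over 21 oxidative phosphorylation genes and 0.53 over 102 other genes. It was 0.42 (27 genes) and 0.51 (421 others) from 600 to 1000 bases, and 0.31 (26 genes) and 0.32 (1873 others) from 1000 to 2000 bases. From 2000 to 4000 bases the 8 genes had a median of 0.27 and the 3562 others 0.063, and the 2955 other genes over 4000 bases had -0.10. Without ribosomal protein genes the other genes of at most 600 bases still had a median of 0.47 (79 genes).

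After each ratio was centred on the median of genes in the same bin of transcript length and GC content, the median of the 82 genes was -0.017. Of the 82 genes, 39 lay above 0 (47.6%; 49.7% of all genes) and 0 were at least 2-fold higher in the SVZ (13.1% of all genes). The assembly factor Ndufaf5 was the 1 gene at least 2-fold higher in the cortex (12.2% of all genes). The genes thus stood above all genes together, but not above genes of like length and GC content. The centred ratios of Sdhc (0.94), Ndufa13 (0.76), Ndufa2 (0.59) and Atp5g2 (0.57) were the highest, and those of Ndufaf5 (-1.05), Ndufaf6 (-0.88) and Atp5g1 (-0.55) the lowest. What ties the ratio to length was not tested.

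**Figure D3:**
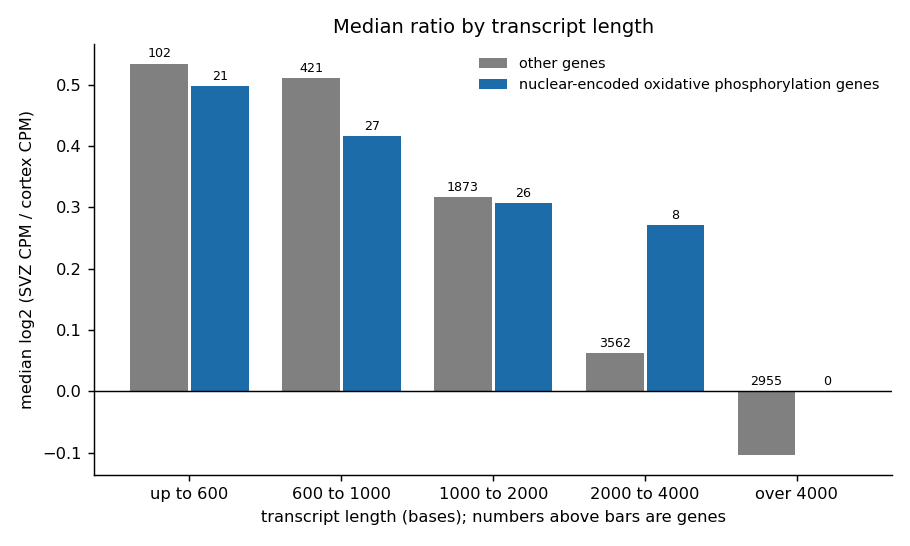
Median log2 ratio of SVZ to cortex CPM (y axis) in 5 classes of transcript length in bases (x axis) for the oxidative phosphorylation genes (blue) and the other genes that averaged 10 CPM or more (grey), with the number of genes above each bar. Both fall with length, from 0.50 and 0.53 at up to 600 bases to 0.27 and 0.063 between 2000 and 4000 bases, and only in that last class with oxidative phosphorylation genes do the medians lie more than 0.2 apart.

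**Figure D4:**
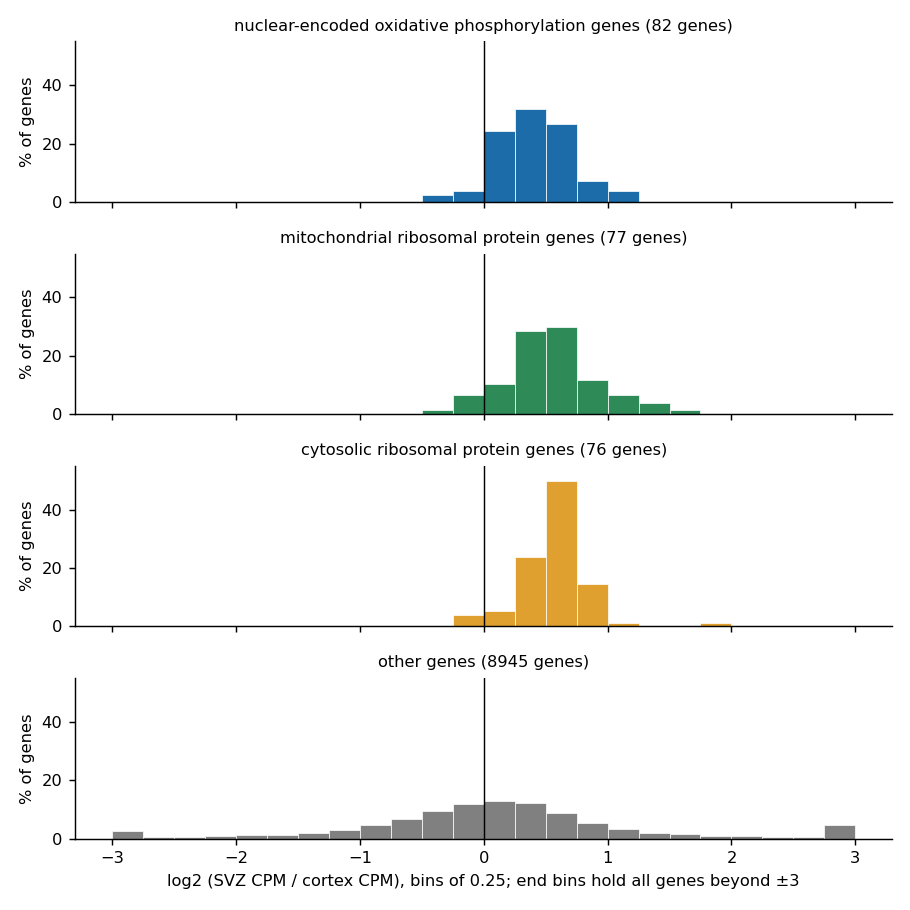
Share of genes (y axis, percent) in each bin of 0.25 of the log2 ratio of SVZ to cortex CPM (x axis) for 4 sets of genes that averaged 10 CPM or more, with a line at 0. The oxidative phosphorylation genes and both sets of ribosomal protein genes form a single narrow peak to the right of 0, while the 8945 other genes spread to both sides and past 3.

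Every count below of genes higher in the SVZ stands beside 55.2% of all genes tested. Complex I, which oxidises NADH, had 45 genes in the list, of which 43 averaged 10 CPM or more and 40 were higher in the SVZ. Their median log2 ratio was 0.44, or -0.032 after centring on length and GC content, and together the genes of complex I took 0.801% of SVZ reads. All 7 genes of its nuclear-encoded catalytic core were higher in the SVZ, with a median of 0.37. Ndufv2, an iron-sulfur subunit of the NADH-binding tip and the most counted gene of complex I, had 21558 SVZ reads and 7433 cortex reads (419 and 337 CPM), a log2 ratio of 0.31 (0.28 to 0.35). Ndufs8, an iron-sulfur subunit on the path to ubiquinone, had the highest ratio of the core, 0.83 (0.76 to 0.90), from 8148 SVZ reads and 1967 cortex reads (158 and 89.2 CPM). The core genes lay between 0.31 for Ndufs1, the largest iron-sulfur subunit, and this value.

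The 28 accessory genes of complex I with enough reads, which encode subunits that surround the core and are needed for its assembly and stability, were all higher in the SVZ, with a median log2 ratio of 0.49. Ndufa2, a subunit of the NADH-binding module, had the highest ratio of all 82 genes. It had 12910 SVZ reads and 2579 cortex reads (251 and 117 CPM), a log2 ratio of 1.10 (1.04 to 1.16). Ndufc2, of the membrane arm, followed with 17150 SVZ reads and 3952 cortex reads (333 and 179 CPM) and a ratio of 0.90 (0.85 to 0.95). At the other end, Ndufv3, also of the NADH-binding module, had 8833 SVZ reads and 3759 cortex reads (172 and 170.5 CPM), a log2 ratio of 0.011 (-0.045 to 0.066), and Ndufa8 had 243 CPM in the SVZ and 236 CPM in the cortex, a ratio of 0.041 (-0.0053 to 0.088). Both intervals span 0, and both ratios fell below 0 when the libraries were scaled by TMM, upper-quartile or DESeq2 factors. Per kb of transcript Ndufc1, a small membrane subunit, had the highest level of all 82 genes in both libraries, with 1052 CPM per kb in the SVZ and 771 CPM per kb in the cortex.

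Of the 7 complex I assembly factors 4 were higher in the SVZ, a share near the 55.2% of all genes, and 3 in the cortex. The intervals of Ndufaf2 and Ndufaf3, among the 4, span 0. The median log2 ratio was 0.018, or -0.27 after centring on length and GC content, against 0.13 for the 7 core and -0.00096 for the 28 accessory genes after centring. Ndufaf5, which hydroxylates the core subunit Ndufs7, had 1607 SVZ reads and 947 cortex reads (31.2 and 42.9 CPM), a log2 ratio of -0.46 (-0.58 to -0.34), the lowest of all 82 genes. Ndufaf6 had 1355 SVZ reads and 741 cortex reads (26.3 and 33.6 CPM) and a ratio of -0.35 (-0.48 to -0.22). Ndufaf4 had 4966 SVZ reads and 2366 cortex reads (96.5 and 107 CPM) and a ratio of -0.15 (-0.22 to -0.081). These were 3 of the 4 genes in the whole set whose interval lay below 0. Ndufaf1, which acts early in the assembly of the membrane arm, went the other way with 64.0 CPM in the SVZ and 39.9 CPM in the cortex and a ratio of 0.68 (0.58 to 0.79). Ndufaf3, with a ratio of 0.018, changed sign under the same 3 scalings. Of 7 further complex I assembly genes outside the name rule, 6 were higher in the SVZ (55.2% of all genes), with a median of 0.57. Nubpl, which delivers iron-sulfur clusters, had the highest ratio at 1.42 (1.18 to 1.67). It averaged 10 CPM only through the SVZ, with 19.3 CPM in the SVZ and 7.21 CPM in the cortex. Ecsit had the lowest ratio at -0.51 (-0.61 to -0.42).

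Complex II, succinate dehydrogenase, is the only complex encoded wholly by nuclear genes, and all 4 of its genes were higher in the SVZ, with a median log2 ratio of 0.54 (0.27 after centring). Sdhb, the iron-sulfur subunit, was the most counted, with 35188 SVZ reads and 12749 cortex reads (684 and 578 CPM) and a ratio of 0.24 (0.21 to 0.27). Sdha, the flavoprotein that binds succinate, had 16918 SVZ reads and 4963 cortex reads (329 and 225 CPM) and a ratio of 0.55 (0.50 to 0.59). The intervals of the catalytic pair thus do not overlap, but they cover counting error only. Of the membrane anchors, which hold the haem and the ubiquinone site, Sdhc had 6600 SVZ reads and 1382 cortex reads (128 and 62.7 CPM), a log2 ratio of 1.03 (0.95 to 1.12). Sdhd had 8602 SVZ reads and 2564 cortex reads (167 and 116 CPM), a ratio of 0.52 (0.46 to 0.59). Sdhc was thus the lowest of the 4 genes in CPM and the highest in ratio. On summed counts, which weigh Sdhb most, complex II had a log2 ratio of 0.41. The 4 complex II assembly genes were also all higher in the SVZ, beside 55.2% of all genes. Their median was 0.33, from Sdhaf3 at 0.20 (0.024 to 0.38) to Sdhaf1 at 0.58 (0.46 to 0.70).

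Complex III, which passes electrons from ubiquinol to cytochrome c, had 8 genes, all higher in the SVZ, with a median log2 ratio of 0.41 (0.12 after centring). The large core proteins lay nearest to equal. Uqcrc1, the most counted, had 36397 SVZ reads and 13262 cortex reads (708 and 601 CPM) and a ratio of 0.23 (0.21 to 0.26). Uqcrc2 had 14138 SVZ reads and 5842 cortex reads (275 and 265 CPM) and a ratio of 0.053 (0.0090 to 0.097), which fell below 0 under TMM, upper-quartile and DESeq2 scaling. Both flank the electron-carrying subunits on the matrix side and have no redox centre. Uqcrq, a small membrane subunit, had 11937 SVZ reads and 4022 cortex reads (232 and 182 CPM) and a ratio of 0.35 (0.30 to 0.40). The other small subunits lay higher. Uqcr10 had 11881 SVZ reads and 2949 cortex reads (231 and 134 CPM) and a ratio of 0.79 (0.73 to 0.85), Uqcrb had 11245 SVZ reads and 2949 cortex reads (219 and 134 CPM) and a ratio of 0.71 (0.65 to 0.77), and Uqcrh, the hinge protein that meets cytochrome c1, had 12672 SVZ reads and 3325 cortex reads (246 and 151 CPM) and a ratio of 0.71 (0.65 to 0.76). The median was 0.23 over the 3 core genes and 0.71 over the 5 small subunits. The core genes have the longer transcripts, with a median of 1653 bases against 535 bases for the small subunits, and after centring on length and GC content the medians were 0.050 and 0.18. Of 6 complex III assembly genes 4 were higher in the SVZ, beside 55.2% of all genes. Their median was 0.14, between Lyrm7 at -0.52 (-0.69 to -0.35) and Uqcc3 at 0.69 (0.57 to 0.81).

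Complex IV, cytochrome c oxidase, had 18 genes in the list, and the 11 that averaged 10 CPM or more were all higher in the SVZ, with a median log2 ratio of 0.42 that became -0.10 after centring. These are the 10 subunits found in most tissues and Cox7a2l. Cox4i1, the largest nuclear-encoded subunit and the most counted, had 27806 SVZ reads and 9603 cortex reads (541 and 435 CPM) and a ratio of 0.31 (0.28 to 0.35). The highest ratio was that of Cox8a, a small membrane subunit, with 8343 SVZ reads and 2068 cortex reads (162 and 93.8 CPM) and a ratio of 0.79 (0.72 to 0.86). Cox7c followed with 15283 SVZ reads and 3981 cortex reads (297 and 181 CPM) and a ratio of 0.72 (0.67 to 0.77), and Cox6b1, which bridges the monomers of the dimer on the intermembrane side, with 21248 SVZ reads and 5792 cortex reads (413 and 263 CPM) and 0.65 (0.61 to 0.70). The lowest ratio was that of Cox5a, a subunit on the matrix side, with 19412 SVZ reads and 7586 cortex reads (377 and 344 CPM) and a ratio of 0.13 (0.095 to 0.17). Cox6a1 had 15176 SVZ reads and 5554 cortex reads (295 and 252 CPM) and a ratio of 0.23 (0.18 to 0.27), and Cox7b had 8685 SVZ reads and 3051 cortex reads (169 and 138 CPM) and a ratio of 0.29 (0.23 to 0.35). Both are membrane subunits. Of the complex IV subunits, Cox4i1 also had the highest level per kb of transcript, 726 CPM per kb in the SVZ and 585 CPM per kb in the cortex. Among 17 complex IV assembly genes with enough reads 16 were higher in the SVZ, beside 55.2% of all genes. Their median was 0.32, from Coa7 at -0.80 (-0.90 to -0.70) to Cmc2 at 2.68 (2.47 to 2.91). Cmc2 had 2684 SVZ reads and 179 cortex reads (52.2 and 8.12 CPM), so only its SVZ level was above 10 CPM. Sco2 and Pet117 had 0 reads in both libraries.

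The subunit isoforms of complex IV that are known from lung, muscle, heart and testis were all far below the ubiquitous subunits, and 4 of the 7 had fewer than 10 reads in each library. Cox4i2, the isoform of Cox4i1 known from lung and from hypoxia, had 166 SVZ reads and 19 cortex reads (3.23 and 0.862 CPM), a log2 ratio of 1.91 (1.22 to 2.67). It held 0.593% (95% exact binomial interval 0.507 to 0.691) of the SVZ reads and 0.197% (0.119 to 0.308) of the cortex reads of Cox4i1 and Cox4i2 together. Cox7a1, the heart and muscle isoform, had 56 SVZ reads and 7 cortex reads (1.09 and 0.317 CPM) and a ratio of 1.78 (0.64 to 3.16), and held 0.256% (95% exact binomial interval 0.194 to 0.333) of the SVZ reads and 0.105% (0.0423 to 0.217) of the cortex reads of its group with Cox7a2 and Cox7a2l. Cox7a2, with 12254 SVZ reads and 3958 cortex reads (238 and 179 CPM) and a ratio of 0.41 (0.36 to 0.46), held 56.1% (95% exact binomial interval 55.4 to 56.8) of the SVZ reads and 59.5% (58.3 to 60.6) of the cortex reads, and Cox7a2l, the supercomplex factor, with 9531 SVZ reads and 2692 cortex reads (185 and 122 CPM) and a ratio of 0.60 (0.54 to 0.66), held 43.6% (95% exact binomial interval 43.0 to 44.3) of the SVZ reads and 40.4% (39.3 to 41.6) of the cortex reads. Cox6b2, the testis isoform of Cox6b1, had 58 SVZ reads and 0 cortex reads. Set against a floor of 3 cortex reads its SVZ level was 8.29-fold higher, and the counting interval of its log2 ratio began at 2.71. Its share of Cox6b1 and Cox6b2 was 0.272% (95% exact binomial interval 0.207 to 0.352) in the SVZ. In the cortex the share was 0%, with an upper limit of 0.0637%. Cox7b2 had 9 SVZ reads and 0 cortex reads, 1.29-fold higher in the SVZ against the same floor, and its counting interval spans 0 (lower end -0.24). Cox6a2, Cox8b and Cox8c had 0 reads in both libraries, where the floor of 3 reads stands for 0.0583 CPM in the SVZ and 0.136 CPM in the cortex. Each ubiquitous subunit with such an isoform, Cox7a2 aside, thus held over 99% of its group's reads in both areas.

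Complex V had 17 genes in the list, of which 16 averaged 10 CPM or more and 14 were higher in the SVZ. Their median log2 ratio of 0.26 was the lowest of the complexes and became -0.065 after centring, and on summed counts the ratio was 0.33. The large subunits of the F1 head, where ATP is made, lay close to equal between the areas. Atp5b, the catalytic beta subunit and the most counted of all 92 genes, had 41471 SVZ reads and 16698 cortex reads (806 and 757 CPM) and a ratio of 0.090 (0.065 to 0.12), which changed sign under TMM, upper-quartile and DESeq2 scaling. Atp5a1, the alpha subunit, had 605 CPM in the SVZ and 516 CPM in the cortex and a ratio of 0.23 (0.20 to 0.26), and Atp5c1, the gamma subunit of the rotor, 520.4 CPM in the SVZ and 456 CPM in the cortex and 0.19 (0.16 to 0.22). Atp5e, the small epsilon subunit, had the highest ratio of the 5 head genes, 0.69 (0.63 to 0.75), from 9829 SVZ reads and 2610 cortex reads (191 and 118 CPM).

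The peripheral stalk, which holds the head against rotation, had a median log2 ratio of 0.61 over 4 genes. Atp5j, coupling factor F6, had 21715 SVZ reads and 5120 cortex reads (422 and 232 CPM) and a ratio of 0.86 (0.82 to 0.91). Atp5h, the d subunit, had 17236 SVZ reads and 4410 cortex reads (335 and 199.99 CPM) and a ratio of 0.74 (0.70 to 0.79). Atp5o, which joins the stalk to the head, had 597 CPM in the SVZ and 431 CPM in the cortex and a ratio of 0.47 (0.44 to 0.50), and Atp5f1, the membrane-spanning b subunit, 405 CPM in the SVZ and 343 CPM in the cortex and 0.24 (0.20 to 0.28). The stalk genes thus ranged from 0.24 to 0.86, and all 5 head genes from 0.090 to 0.69 with a median of 0.23. After centring on length and GC content the medians were 0.084 for the stalk and -0.086 for the head. Of the small membrane subunits, Atp5k had 8325 SVZ reads and 3363 cortex reads (162 and 153 CPM) and a ratio of 0.086 (0.028 to 0.14), which changed sign under the same 3 scalings, and Atp5j2 a ratio of 0.68 (0.62 to 0.74). Atp5sl had 921 SVZ reads and 403 cortex reads (17.9 and 18.3 CPM), a ratio of -0.030 (-0.20 to 0.14), and its interval spans 0.

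Paralogues of the c-ring, the proton-driven rotor, went in different directions. Atp5g1 had 7662 SVZ reads and 3524 cortex reads (149 and 159.8 CPM), a log2 ratio of -0.10 (-0.16 to -0.043), and was the only subunit gene in the set whose interval lay below 0. Atp5g2 had 2094 SVZ reads and 444 cortex reads (40.7 and 20.1 CPM), a ratio of 1.02 (0.87 to 1.17). Atp5g3 had 12679 SVZ reads and 4261 cortex reads (247 and 193 CPM), a ratio of 0.35 (0.30 to 0.40). The intervals of the 3 genes do not overlap, but they cover counting error only. Atp5g1 held 34.2% (95% exact binomial interval 33.5 to 34.8) of the SVZ reads and 42.8% (41.8 to 43.9) of the cortex reads from the 3 genes. Atp5g2 held 9.33% (95% exact binomial interval 8.96 to 9.72) of the SVZ reads and 5.40% (4.92 to 5.91) of the cortex reads. Atp5g3, the most counted of them in both areas, held 56.5% (95% exact binomial interval 55.9 to 57.2) of the SVZ reads and 51.8% (50.7 to 52.9) of the cortex reads. The sum of the 3 genes had a log2 ratio of 0.22 (0.19 to 0.26). Copies limit these values: 86.9% of the 75-base windows of the Atp5g2 transcript and 59.6% of those of Atp5g1 also occur in a transcript of another gene, and reads that map to several places were not counted. Such reads were 8.20% of all reads in the SVZ and 6.89% in the cortex, and how far their loss moved the shares was not tested.

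**Figure D5:**
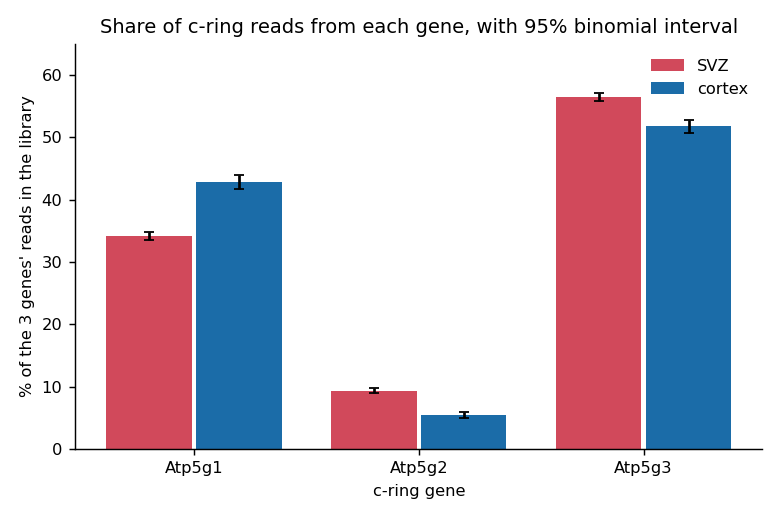
Share of the reads of the 3 c-ring genes that each held (y axis, percent) in the SVZ (red) and cortex (blue) library, with the 95% exact binomial interval as error bars. Atp5g1 falls from 42.8% in the cortex to 34.2% in the SVZ, while Atp5g2 goes from 5.40% to 9.33% and Atp5g3 from 51.8% to 56.5%.

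Near-identical copies touched other genes too. Of the 92 genes 26 shared at least 1 window of 75 bases with a transcript elsewhere and 16 shared at least 10% of their windows. Of the genes named above, Cox7c shared 50.4% of its windows, Atp5h 40.3%, Uqcrb 29.1%, Atp5f1 15.4%, Cox7a2l 15.3% and Atp5o 10.2%, so their reads may be undercounted. Among genes with enough reads, the median log2 ratio was 0.35 for the 57 with no shared window, 0.54 for the 10 with under 10% and 0.47 for the 15 with at least 10%, and 53, 10 and 14 of them were higher in the SVZ. Ndufs5, an accessory subunit of complex I, had 1 SVZ read and 0 cortex reads, too few for a ratio. BC002163, an annotated pseudogene, shares 32.4% of the windows of Ndufs5 and had 146 SVZ reads and 38 cortex reads. The other windows of Ndufs5 are not shared, and why it had so few reads was not tested. Outside the ubiquitous set, Ndufa4l2, a paralogue of Ndufa4, had 477 SVZ reads and 143 cortex reads (9.27 and 6.49 CPM) and held 2.64% (95% exact binomial interval 2.41 to 2.89) of the SVZ reads and 2.32% (1.96 to 2.73) of the cortex reads of the pair. Ndufa4 itself had 17568 SVZ reads and 6008 cortex reads (342 and 272 CPM) and a ratio of 0.33 (0.28 to 0.37). Atp5s, an ATP synthase coupling factor, was below 10 CPM on average, with 570 SVZ reads and 177 cortex reads (11.1 and 8.03 CPM).

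Ribosomal protein genes were set beside the oxidative phosphorylation genes. Of 77 mitochondrial ribosomal protein genes, whose products translate the mitochondrially encoded subunits, 71 were higher in the SVZ (55.2% of all genes) and 9 at least 2-fold (14.9% of all genes), with a median log2 ratio of 0.57. Of 76 cytosolic ribosomal protein genes 73 were higher in the SVZ and 2 at least 2-fold, with a median of 0.59. Both medians lay above the 0.41 of the oxidative phosphorylation genes, and both lay within the quartiles of those genes (0.23 and 0.67).

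A mixed list held genes that feed electrons into the chain, genes that carry them (Cyc1 of complex III among these) and genes of ubiquinone synthesis. It had a median log2 ratio of 0.072, with 10 of 16 higher in the SVZ and 4 at least 2-fold, against 55.2% and 14.9% of all genes. Coq7, a hydroxylase of ubiquinone synthesis, had the highest ratio, 2.15 (2.01 to 2.29), from 4745 SVZ reads and 458 cortex reads (92.3 and 20.8 CPM). The other 3 past 2-fold were the electron transfer flavoprotein genes and their dehydrogenase, which pass electrons from fatty acid oxidation to ubiquinone, named here after their values were seen. Etfa had 354 CPM in the SVZ and 111 CPM in the cortex, a ratio of 1.67 (1.61 to 1.73). Etfb had 160.2 CPM in the SVZ and 50.7 CPM in the cortex, a ratio of 1.66 (1.57 to 1.75), and Etfdh 90.2 CPM in the SVZ and 32.8 CPM in the cortex, a ratio of 1.46 (1.35 to 1.58). Gpd2, the glycerol-3-phosphate dehydrogenase that feeds electrons from the cytosol, had the lowest ratio, -0.56 (-0.62 to -0.49). This mixed list thus spanned -0.56 to 2.15, against -0.10 to 1.10 for the 73 subunit genes with enough reads. Genes outside the oxidative phosphorylation set also spread widely, with an SD of 1.58.

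Genes of nucleotide and phosphate exchange had 3 of 7 higher in the SVZ (55.2% of all genes) and a median of -0.053. Slc25a4, the ADP/ATP carrier known from heart, muscle and brain, had the lowest log2 ratio, -0.32 (-0.34 to -0.29), from 46729 SVZ reads and 24934 cortex reads (908 and 1131 CPM). Its paralogue Slc25a5, known from dividing cells and named after its values were seen, had 51347 SVZ reads and 5270 cortex reads (998 and 239 CPM), a log2 ratio of 2.06 (2.02 to 2.10). The carriers that bring ADP to complex V were thus apart in opposite directions, while the subunits of complex V lay within -0.10 and 1.02. Among 6 genes of complex V assembly and regulation (median 0.27) the highest was Tmem242 at 1.07 (0.99 to 1.14) and the lowest Atpif1, the inhibitor of ATP hydrolysis by complex V, at -0.40 (-0.43 to -0.38).

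Of 7 regulators of respiratory genes with enough reads 6 were higher in the SVZ (55.2% of all genes) and 3 at least 2-fold (14.9%), with a median of 0.97. Nfe2l2, a stress-response transcription factor, had the highest ratio, 3.65 (3.16 to 4.19), on only 996 SVZ reads and 34 cortex reads (19.4 and 1.54 CPM). Ppargc1a, also among the 3 past 2-fold, had 20.8 CPM in the SVZ and 7.03 CPM in the cortex. Both genes averaged 10 CPM only through the SVZ, the library where they were high, which limits these counts and the median. Pprc1, a coactivator, had the lowest ratio, -0.69 (-0.89 to -0.49), and averaged 10 CPM only through the cortex (9.86 CPM in the SVZ and 15.9 CPM in the cortex). Nrf1 itself, whose motif is shown above, had 60.8 CPM in the SVZ and 30.9 CPM in the cortex and a ratio of 0.97 (0.86 to 1.10). Of 11 genes of mitochondrial DNA maintenance and transcription 8 were higher in the SVZ and 3 at least 2-fold, beside the same shares of all genes. Among the 3, Polg averaged 10 CPM only through the SVZ (16.0 CPM in the SVZ and 7.48 CPM in the cortex). The median was 0.67. Ratios ran from Lrpprc, which stabilises mitochondrial mRNA, at -0.60 (-0.69 to -0.51) to Ssbp1, the mitochondrial single-strand DNA binding protein, at 1.17 (1.11 to 1.24).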

How the data were processed

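LCM samples of the SVZ and the cortex of mouse brain at embryonic day 16.5 (1 library each) were analysed. Per the study's methods and the submitters' processing notes, the authors trimmed adapters with cutadapt 4.1 and mapped read 1 to mm10 with STAR 2.7.9a, which counted reads per gene and left out reads mapping to several places. The deposited counts, whole unstranded reads per gene, were used as they are. A further deposited table with the authors' CPM, fold changes and log10 ratios was not used, and libraries of other experiments in the series were not analysed here.

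CPM was computed on gene-assigned reads, and no pseudocount was used. A count of 0 was replaced by a floor of 3 reads, so that such a ratio rests on the floor. Genes with at most 3 reads in both libraries got no ratio. Medians and counts used genes that averaged 10 CPM or more. Intervals and floors cover counting error only, since PCR reads that carry no molecular identifier can be copies of each other. The ratio and interval code was tested on simulated data. The symbol rule uses no measured value, but the choice of oxidative phosphorylation as the subject and the gene lists were made with earlier results of these data known. Values are given in full for the 3 highest and 3 lowest ratios of each complex, genes 2-fold apart, the most counted gene of each complex, paralogues and genes with 0 reads, with CPM or a ratio for others. Of each list the highest and lowest are named.

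Lengths, GC content and shared 75-base windows came from GENCODE M21 transcripts (GRCm38, the same assembly as mm10), with 1 principal transcript per gene, and promoters from RefSeq. Length was known for 8995 of the 9027 genes. Alternatives were TMM and upper-quartile factors (edgeR 4.0.16), DESeq2 1.42.0 size factors, stranded counts, library totals that leave out the 10 most counted genes, thinning, a pseudocount, other minimums, centring on length and GC content, other groupings and a fold of 1.5. Python 3.11.15, numpy 2.4.6, scipy 1.17.1 and R 4.3.3 were used.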

Additional observations from a re-analysis of the deposited data

How the results depend on the processing

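Scaling moved all ratios by one amount. The median of all genes tested shifted by -0.096 on the log2 scale with TMM factors, -0.10 with upper-quartile factors and -0.096 with DESeq2 size factors. The median of the oxidative phosphorylation genes became 0.32, 0.31 and 0.32 in that order, complex I 0.35, 0.34 and 0.35, complex II 0.44 under each, complex III 0.31 under each, complex IV 0.32 under each, and complex V 0.17, 0.16 and 0.17. Under each, 71 of 82 genes were higher in the SVZ and 1 (not 3) at least 2-fold, and 6 genes changed sign: Atp5b (-0.0025, -0.0083 and -0.0028), Atp5k (-0.0072, -0.013 and -0.0075), Uqcrc2 (-0.040, -0.046 and -0.040), Ndufa8, Ndufaf3 and Ndufv3. Without a filter on low values 6 genes were at least 2-fold higher in the SVZ (23.0% of all genes). With the filter, 27 were at least 1.5-fold higher (26.1% of all genes). On summed CPM complex II was 0.41 and complex V 0.33.

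Centring on bins of length and GC content reversed the median of all 82 genes (-0.017) and those of complexes I (-0.032), IV (-0.10) and V (-0.065), and lowered complexes II (0.27) and III (0.12). It left 39 genes higher in the SVZ (49.7% of all genes), 0 at least 2-fold (13.1%), and 1 at least 2-fold higher in the cortex (12.2%). With bins made only of other genes that are not ribosomal, chosen after seeing the data, these values were -0.0056 for all, -0.043, 0.32, 0.16, -0.035 and -0.060 for complexes I to V, and 40, 0 and 1 genes. Shares of all genes were not computed for these bins. The cause was not tested. Of the summary values under all alternatives 75 of 118 stayed within the counting interval or within 1.5 times the count. Of the values of single genes, 345 of 574 stayed inside their counting interval and 220 moved outside it without reversing a ratio whose interval excluded 0. No paired analysis was possible because the areas share fewer than 2 replicate numbers, and no replicate could be left out.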
